A study of Mus musculus with 30 samples.

Results

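The 6 h between 12 h and 18 h after injection were followed here in normal forelimb development, as the change in gene expression from the 3 control libraries at 12 h to the 3 control libraries at 18 h. These 6 libraries are part of a series of 30. Each was made from polyA RNA of mouse forelimb buds (wild-type Swiss Albino), and per the study's methods each replicate was 1 pair of buds, taken from staged embryos of several litters. Pregnant females received DMSO in PBS by intraperitoneal injection at embryonic stage E10.5, so all control embryos were exposed to the solvent and its injection. Other females received Wnt-C59 (C59), an inhibitor of porcupine, the enzyme that adds a lipid to WNT proteins before secretion. Control libraries at 1, 6 and 24 h and C59 libraries at 12 and 18 h, 3 in each group, entered only where named. The count table listed 50833 autosomal genes, and 15027 of them had enough counts to be tested. All levels are CPM (counts scaled to library size), and they are not corrected for gene length, so they are compared between libraries and never between genes.

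At these stages the limb bud grows out under signals from its tip and its posterior margin. The apical ectodermal ridge secretes FGFs, the zone of polarizing activity at the posterior margin secretes SHH, and GREM1, an antagonist of BMPs, links both centres. In the core of the bud, mesenchymal cells condense under SOX9 and begin to make cartilage matrix, while muscle progenitors that entered from the somites begin to express myogenic factors and then contractile proteins. Tendon, connective tissue, vessels, nerves and blood form alongside.

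The libraries carried the markers of a forelimb. *Tbx5*, the forelimb T-box factor, stood at 237 to 254 CPM at 12 h and 277 to 284 CPM at 18 h. Of 20 genes in a list for trunk tissues and liver, 13 had too few counts to be tested. Only 1 of the 7 others passed, which concerns change and not presence. The list summed to 112.2 to 177.5 CPM at 12 h and 112.7 to 120.5 CPM at 18 h, so some members were expressed in every library. Whether trunk tissue was present was not tested. *Alb* (liver) reached at most 0.209 CPM, and *Olig2* and *Pax6* (neural tube) at most 0.0547 and 0.527 CPM. *Afp*, a marker of yolk sac and liver, stood at 42.8 CPM in DMSO 12 h replicate 2 and at 0 to 0.205 CPM in the other 5 libraries, and the part of this in other results was not tested. *Pitx1*, better known from the hindlimb, was the gene that passed (log2 fold change 1.11, adjusted p = 0.0208), at 1.25, 1.23 and 1.09 CPM at 12 h and 2.77, 2.37 and 2.61 CPM at 18 h. The 6 libraries held 18331160 to 38974885 counts. No 2 replicates agreed within counting error, so each was kept as its own sample. Per degree of freedom, chi-square was 3.33 to 6.44 between pairs at 12 h and 3.94 between replicates 2 and 3 at 18 h. DMSO 18 h replicate 1 stood apart from both, with 35.8 and 28.8, and so did DMSO 6 h replicate 1 (41.7 and 35.4) among the libraries used for the earlier interval. *CT010467.1* was the gene with the most counts in the other libraries of these groups. It held 0.379% of the counts in DMSO 18 h replicate 1, against 2.73% and 2.57% in replicates 2 and 3. In DMSO 6 h replicate 1 it held 0.204%, against 2.55% and 2.39%. The part of this gene in the chi-square values was not tested. In FPKM, which also covers the sex chromosomes, DMSO 12 h replicate 2 had *Xist* at 0.048 and 4 Y-linked genes summing to 38.6, whereas DMSO 18 h replicate 2 had both *Xist* (42.2) and Y-linked transcripts (21), and the other 4 libraries had *Xist* and 0.02 to 0.241 from the Y-linked genes. Both kinds of transcript in DMSO 18 h replicate 2 go against 1 pair of buds from 1 embryo. Libraries of other groups used here held both kinds as well, such as DMSO 24 h replicate 1 (*Xist* 37.2 and Y-linked genes 20.1). The libraries were not matched for sex, and its part in the results was not tested.

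To place each library along normal development, its profile was projected on the difference between the controls at 1 h and 24 h over 1831 genes that differed between those groups, with 1 h set to 0% and 24 h to 100%. DMSO 1 h replicate 1 also stood apart from its group. Its chi-square per degree of freedom was 20.8 and 22.8, against 5.36 between replicates 2 and 3. The part of this library in the positions was not tested. At 12 h the libraries lay at 33.93%, 50.64% and 32.41%, and at 18 h at 69.45%, 74.99% and 69.08%. DMSO 12 h replicate 2 was thus ahead of both other libraries of its group, but still 18.44 percentage points behind the earliest library at 18 h. The mean moved from 38.99% ± 10.12 to 71.18% ± 3.31 (SD, n = 3 each), a step of 32.18 percentage points. The step from 6 h to 12 h was 18.24 and that from 18 h to 24 h was 28.82 percentage points. The groups at 12 h and 18 h did not overlap, and the exact permutation test gave p = 0.1, the smallest value that 3 against 3 libraries allow. Without DMSO 12 h replicate 2 the step was 38.01 percentage points.

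**Figure D1:**
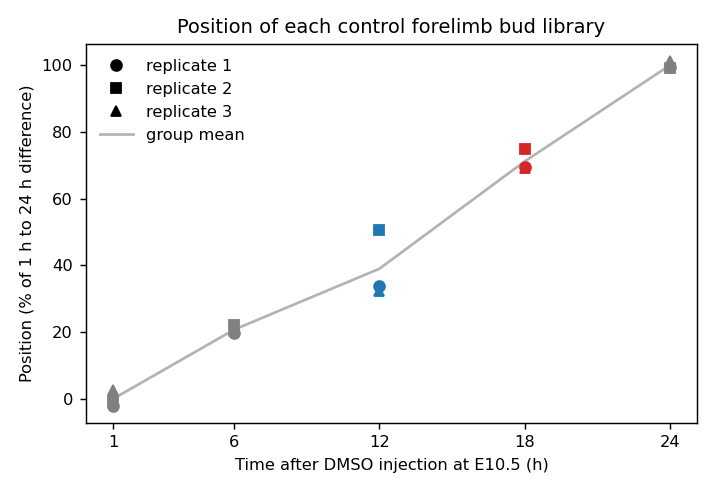
Position of each of the 15 control libraries (y axis, percent of the difference between the 1 h and 24 h means) against time after injection (x axis, h), with symbols for replicates, blue for 12 h, red for 18 h, grey for the other times and a line through the group means. The libraries at 12 h lie between 32.41% and 50.64%, and those at 18 h between 69.08% and 74.99%.

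From 12 h to 18 h, 487 genes rose and 429 fell at an adjusted p below 0.05, which is 3.24% and 2.85% of the genes tested. With a log2 fold change beyond 1 as well, 159 genes rose (1.06%) and 37 fell (0.246%). Of the larger rises 141 of 159 were protein-coding genes, close to their share of all genes tested (13228 of 15027), whereas 19 of the 37 larger falls were pseudogenes, whose reads can be shared with their parent genes, against 626 of all genes tested, and 14 were protein-coding. The median log2 fold change of all genes was 0.0053. With upper-quartile scaling, 63.4% of the genes that passed were higher at 18 h, against 53.2% here. The counts depended on single libraries: 95 genes rose and 48 fell without DMSO 12 h replicate 1, 108 and 56 without DMSO 12 h replicate 3, 154 and 111 without DMSO 18 h replicate 2, 198 and 122 without DMSO 18 h replicate 3, and 1040 and 980 without DMSO 18 h replicate 1. When DMSO 12 h replicate 2 and DMSO 18 h replicate 1 were both left out, a choice made after seeing the data, 1687 rose and 1608 fell, and 904 of the 916 genes were among them. Groups did not overlap for 4604 genes (30.6%). Of 19 genes that the study followed in tissue, a list it chose on these samples, 5 rose and 4 fell. A list of 8 genes for limb bud identity also held the hindlimb gene *Pitx1*. Of these 8, *Pitx1* and *Tbx5* rose and *Twist1* fell.

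**Figure D2:**
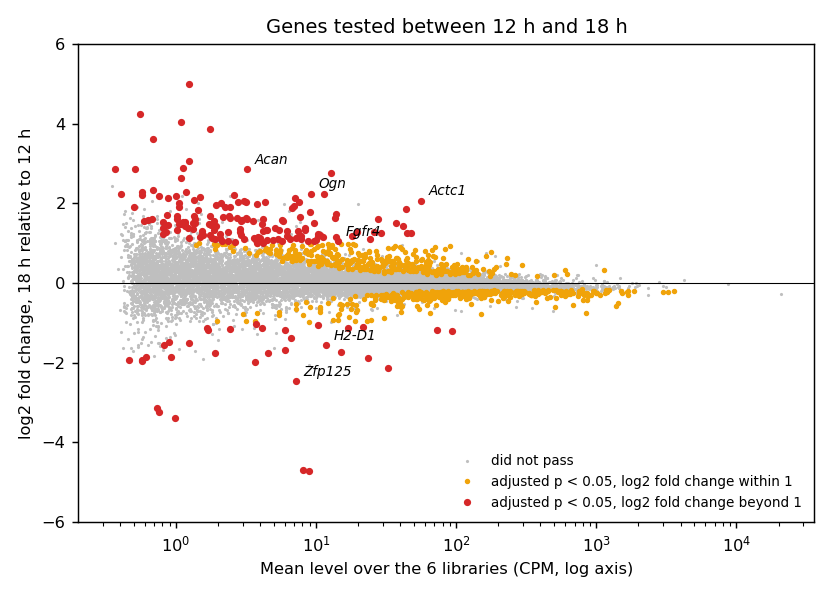
Mean level over the 6 libraries (x axis, CPM, log axis) against the log2 fold change from 12 h to 18 h (y axis) for each gene tested, with 6 genes beyond a log2 fold change of 6 left out. Orange points passed the test and red points also had a log2 fold change beyond 1, of which 159 lie above and 37 below the line at 0.

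Genes of cartilage formation were among those that rose. Of 25 tested, 16 rose and 1 fell, with a median log2 fold change of 0.52, and the summed level of the list went from 2303 to 2449 CPM over the 12 h libraries to 2731 to 3089 CPM over the 18 h libraries. *Acan*, encoding aggrecan, the large proteoglycan of cartilage matrix, stood at 0.192, 1.81 and 0.383 CPM at 12 h and at 4.65, 6.74 and 5.53 CPM at 18 h. Every library at 18 h was thus above every library at 12 h, and replicate 2 was the highest of both groups (log2 fold change 2.86 ± 0.52 SE, adjusted p = 0.0166). *Nkx3-2*, a transcriptional repressor that promotes chondrogenesis, rose from 1.39, 1.28 and 0.876 CPM to 5.59, 5.89 and 3.28 CPM (log2 fold change 2.06 ± 0.28, adjusted p = 0.00571). *Col11a2*, a chain of the minor fibrillar collagen of cartilage, rose from 14.8, 15.1 and 11.1 CPM to 53.6, 39.9 and 30.8 CPM (1.6 ± 0.19, adjusted p = 0.00309). Groups did not overlap for either gene.

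Further genes of the list rose as well. The log2 fold change was 1.69 for *Matn1* and 1.51 for *Matn4* (matrilins), 1.27, 0.85 and 0.36 for the collagen IX chains *Col9a3*, *Col9a2* and *Col9a1*, 1.05 for *Cnmd* and 0.32 for *Col2a1*, the main cartilage collagen. *Cytl1*, a secreted chondrocyte protein, rose by 2.09 and *Runx3*, a runt factor, by 1.05 on the same scale. *Sulf1*, which trims heparan sulphate, rose from 59.5, 72.0 and 55.0 CPM to 110, 132 and 112 CPM (log2 fold change 0.93 ± 0.11, adjusted p = 0.00265). The master regulator *Sox9* itself stood at 252, 273 and 237 CPM at 12 h and 245, 226 and 220 CPM at 18 h, a difference that did not pass (-0.14, adjusted p = 0.21), whereas its partner *Sox6* rose by 0.38. *Hapln1*, the link protein that joins aggrecan to hyaluronan, was the one member that fell, from 33.9, 30 and 34.0 CPM to 15.5, 17.6 and 18.3 CPM (log2 fold change -0.92 ± 0.09, adjusted p = 0.00139). It passed in each fit that left out a library, whereas the number of list members that rose was 8 without DMSO 12 h replicate 1 or replicate 3, and 10 without DMSO 18 h replicate 2.

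Joint genes and BMP pathway genes changed with them. Of 10 genes of the joint interzone, 4 rose and none fell at adjusted p, with a median of 0.40, and *Gdf5*, the growth factor that marks the future joint, went from 3.83, 7.25 and 2.85 CPM to 13.5, 13.2 and 9.32 CPM (log2 fold change 1.38 ± 0.29, adjusted p = 0.027). *Erg*, *Osr1* and *Sfrp2* rose by 0.56, 0.42 and 0.36. Only 1 of the 4 passed without DMSO 12 h replicate 1, DMSO 12 h replicate 3 or DMSO 18 h replicate 2. In the BMP list, 10 of 24 genes rose and 1 fell (median 0.33). Among the ligands, *Bmp2* rose from 17.7, 21.4 and 18.0 CPM to 29.2, 28.0 and 31.2 CPM (log2 fold change 0.63 ± 0.09, adjusted p = 0.00721) and *Bmp5* by 0.47, while *Bmp4* (-0.09) and *Bmp7* (-0.01) did not pass. The receptor *Bmpr1b*, which acts in condensing cartilage, rose from 26.7, 28.2 and 25 CPM to 34.4, 42.2 and 38.7 CPM (0.54 ± 0.09, adjusted p = 0.0126).

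The secreted BMP antagonists went both ways. *Nog* (noggin) rose from 3.30, 3.89 and 2.03 CPM to 9.09, 7.65 and 6.56 CPM, with a log2 fold change of 1.33 ± 0.23 and an adjusted p of 0.0132. *Fst* (1.09), *Bmper* (0.91) and *Chrd* (0.68) rose as well. *Grem1* fell from 71.5, 76.2 and 74.0 CPM to 47.3, 55.0 and 58.6 CPM (log2 fold change -0.46 ± 0.08, adjusted p = 0.0154), and none of its 18 h libraries reached the 12 h range. It did not pass without DMSO 12 h replicate 1 or replicate 3. Of the response genes, *Id1* (0.41), *Id3* (0.30) and *Smad9* (0.87) rose, and *Msx2* (-0.23, adjusted p = 0.0646) did not pass. The number of BMP genes that rose was 2 without DMSO 12 h replicate 1, 3 without DMSO 12 h replicate 3 and 6 without DMSO 18 h replicate 2.

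The muscle list had the highest median of all 30 lists. Of 34 genes tested, 16 rose and 1 fell, with a median log2 fold change of 1.37, and its summed level went from 390.9 to 524.3 CPM at 12 h to 699.3 to 771.4 CPM at 18 h. In bulk tissue, more muscle cells and more RNA per muscle cell cannot be told apart, which holds for each list below. Early factors did not rise: *Myf5* (log2 fold change -0.01), *Lbx1* (-0.03) and *Met* (-0.10) did not pass, and *Pax3*, the progenitor factor, fell from 13.9, 10.8 and 15.2 CPM to 8.15, 8.06 and 7.89 CPM (-0.72 ± 0.13, adjusted p = 0.0175). *Pax3* did not pass without DMSO 12 h replicate 1, DMSO 12 h replicate 3, DMSO 18 h replicate 2 or DMSO 18 h replicate 3. The later factors rose. *Myod1* went from 23.4, 29.3 and 23.3 CPM to 47.7, 46.4 and 50.8 CPM (log2 fold change 0.93 ± 0.09, adjusted p = 0.00168), and *Myog*, which drives differentiation, from 17.6, 35.3 and 15.3 CPM to 64.0, 61.5 and 58.3 CPM (1.44 ± 0.24, adjusted p = 0.0132).

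Genes of fusion, the sarcomere and the neuromuscular synapse rose with *Myog*. *Mymk* and *Mymx*, the membrane proteins that fuse myoblasts, had log2 fold changes of 1.61 and 1.63. *Actc1*, the actin of early muscle (chromosome 2, 114047282 to 114053548), went from 11.4, 43.1 and 11.2 CPM to 88.0, 98.7 and 86.7 CPM (log2 fold change 2.07 ± 0.41, adjusted p = 0.0233). DMSO 12 h replicate 2, the library placed furthest ahead, was the highest of its group here and for *Myog*, *Myl1*, *Ttn*, *Tnnt2* and *Neb*. The giant sarcomere proteins *Ttn* (2.73, 7.68 and 1.92 CPM to 9.35, 29.9 and 16.9 CPM) and *Neb* (1.82, 5.12 and 1.92 CPM to 5.17, 17.0 and 10.6 CPM) rose by 2.23 and 1.93 on the log2 scale, and DMSO 18 h replicate 1 was the lowest of its group for both. The acetylcholine receptor subunits *Chrna1* (1.6) and *Chrng* (1.55), the light chain *Myl1* (2.03), the troponins *Tnnt2* (1.98) and *Tnnt1* (1.29), *Klhl41* (1.78), *Smyd1* (1.59) and *Cdh15* (0.73) rose as well. Without DMSO 12 h replicate 2 the list had 25 genes that rose, against 5 without DMSO 12 h replicate 1 or replicate 3, 9 without DMSO 18 h replicate 2 and 8 without DMSO 18 h replicate 3.

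Myogenic factors such as MYOD1 and MYOG are known to bind E-boxes, and the letters CAGCTG, the same on both strands, are a form they favour. RefSeq promoter windows (GRCm38.p6, from 250 bases before to 50 bases after the start site) matched 25 of the listed muscle genes, and 9 of these (36.0%) held CAGCTG in at least 1 window, against 18.4% of 25748 autosomal genes. Of the muscle genes that rose, 11 were matched and 5 held it. The windows of 3 of these 5, picked among those with a match, are shown in lower case, 5′ to 3′ on the gene's strand, with CAGCTG in capitals. *Chrna1* lies on the minus strand (chr2:73580289-73580588), and the matches begin 92 and 44 bases before the start site. *Chrng* lies on the plus strand (chr1:87205561-87205860), with matches that begin 155 and 132 bases before it. *Myl1* lies on the minus strand (chr1:66945007-66945306), with a match that begins 224 bases before it.
Chrna1: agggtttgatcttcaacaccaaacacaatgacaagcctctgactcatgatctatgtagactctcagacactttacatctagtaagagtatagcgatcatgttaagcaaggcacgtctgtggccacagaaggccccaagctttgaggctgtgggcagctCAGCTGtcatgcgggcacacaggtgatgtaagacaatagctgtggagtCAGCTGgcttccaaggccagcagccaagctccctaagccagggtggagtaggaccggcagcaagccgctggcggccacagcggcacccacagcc
Chrng: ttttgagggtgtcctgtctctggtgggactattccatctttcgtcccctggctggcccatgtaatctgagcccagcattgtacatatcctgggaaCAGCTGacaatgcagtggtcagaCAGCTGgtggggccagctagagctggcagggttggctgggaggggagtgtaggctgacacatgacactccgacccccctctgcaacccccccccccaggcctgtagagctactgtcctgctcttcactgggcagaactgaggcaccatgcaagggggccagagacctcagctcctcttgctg
Myl1: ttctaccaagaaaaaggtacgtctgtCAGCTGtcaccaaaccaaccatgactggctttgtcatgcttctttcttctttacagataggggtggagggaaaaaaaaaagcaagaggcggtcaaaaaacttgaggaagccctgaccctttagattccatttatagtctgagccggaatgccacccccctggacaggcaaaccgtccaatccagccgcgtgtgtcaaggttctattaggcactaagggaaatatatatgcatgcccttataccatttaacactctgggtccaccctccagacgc
No CAGCTG was found in the windows of *Myog*, *Actc1*, *Ttn*, *Smyd1*, *Tnnt1* and *Cdh15*, which rose as well. A match describes letters in a window and does not show that a factor binds there.

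Connective tissue genes rose as well. Of 25 tested, 9 rose and none fell at adjusted p (median log2 fold change 0.425). The small leucine-rich proteoglycans of the matrix led the list. *Ogn* (osteoglycin) went from 3.02, 4.8 and 1.92 CPM to 13.6, 15.5 and 16.6 CPM (log2 fold change 2.24 ± 0.25, adjusted p = 0.00222), *Kera* (keratocan) from 2.54, 3.79 and 2.41 CPM to 10.8, 11.0 and 10 CPM (1.87 ± 0.18, adjusted p = 0.0012) and *Lum* (lumican) from 25.6, 30.5 and 23.8 CPM to 62.5, 64.6 and 62.7 CPM (1.26 ± 0.09, adjusted p = 0.000218). These 3 genes passed in each fit that left out a library. *Dcn* (1.14), *Postn* (0.89), *Fmod* (0.78) and the collagen VI chains *Col6a2* (0.63) and *Col6a1* (0.57) rose by less. *Scx*, the transcription factor of tendon progenitors, did not pass (-0.06, adjusted p = 0.631), nor did *Col1a1* (0.07) and *Col3a1* (0.13). The number of genes that rose was 3 without DMSO 12 h replicate 1, DMSO 12 h replicate 3 or DMSO 18 h replicate 2, 4 without DMSO 18 h replicate 3, 15 without DMSO 18 h replicate 1, and 22 without both libraries that lay apart from their groups.

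**Figure D3:**
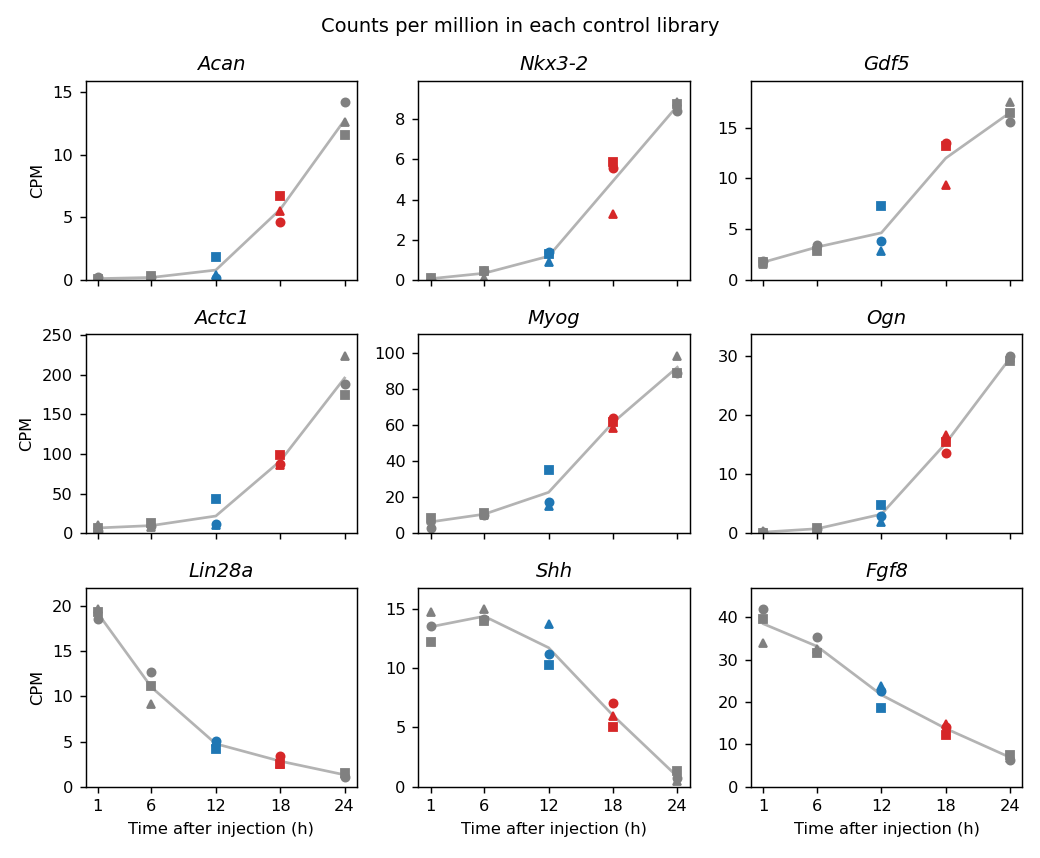
Level (y axis, CPM, starting at 0) of 9 genes in each control library against time after injection (x axis, h), with circles, squares and triangles for replicates 1, 2 and 3, blue for 12 h, red for 18 h, grey for the other times and a line through the group means. For all 9 genes the red points lie outside the range of the blue points, above it for *Acan*, *Nkx3-2*, *Gdf5*, *Actc1*, *Myog* and *Ogn* and below it for *Lin28a*, *Shh* and *Fgf8*.

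The ligands *Shh* and *Fgf8* fell, while most other genes of their lists did not pass. *Shh* fell from 11.2, 10.2 and 13.7 CPM to 7.05, 5 and 5.99 CPM (log2 fold change -0.97 ± 0.16, adjusted p = 0.0118). Its targets and receptors did not follow at a level that passed: *Ptch1* stood at 140, 120 and 136 CPM against 108, 129 and 143 CPM (-0.05, adjusted p = 0.803), *Gli1* changed by -0.10 and *Hhip* by 0.10. The co-receptor *Boc* rose by 0.33 and was the only other of 13 Hedgehog genes to pass. *Fgf8*, the main FGF of the ridge, fell from 22.6, 18.6 and 23.8 CPM to 14.2, 12.2 and 14.8 CPM (log2 fold change -0.66 ± 0.12, adjusted p = 0.0143). Other FGF ligands and receptors rose, *Fgf9* by 0.46, *Fgf18* by 0.40, *Fgfr3* by 0.70 and *Fgfr4* by 1.04, so that 4 of 20 FGF genes rose and 1 fell. *Fgfr4*, which is expressed in muscle progenitors, went from 10.2, 10.1 and 7.66 CPM to 22.7, 17.9 and 17.3 CPM. *Dusp6*, a feedback target of FGF signalling, did not pass (-0.18, adjusted p = 0.148). Without DMSO 12 h replicate 1 or replicate 3 neither *Shh* nor *Fgf8* passed, and without DMSO 18 h replicate 2 *Fgf8* did not. The number of FGF genes that rose was 1 in each of these 3 fits and 2 without DMSO 18 h replicate 3.

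In the ectoderm, the simple-epithelium keratins *Krt8* (log2 fold change -0.64) and *Krt18* (-0.52) fell and *Krt14*, the keratin of basal epidermis, rose (0.51), and the remaining 19 of 22 genes did not pass, including *Sp9* (0.78, adjusted p = 0.0668), *Trp63* (-0.04) and *Epcam* (-0.14). None of the 3 keratin changes passed without DMSO 12 h replicate 3, DMSO 18 h replicate 2 or DMSO 18 h replicate 3.

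Of 17 WNT target genes 1 passed. *Axin2*, the general feedback target, stood at 108, 106 and 107 CPM at 12 h and 107, 104 and 104 CPM at 18 h (log2 fold change -0.02, adjusted p = 0.862). The gene that passed was *Tcf7* (-0.35, adjusted p = 0.0496), which did not under upper-quartile scaling or without DMSO 12 h replicate 1, DMSO 12 h replicate 3, DMSO 18 h replicate 2 or DMSO 18 h replicate 3. Without DMSO 18 h replicate 1, 3 targets fell, and without both libraries that lay apart 5 fell and 1 rose. Of 24 WNT ligands and secreted modulators 5 rose and 1 fell. *Dkk2* rose from 21.8, 25.3 and 22.0 CPM to 41.5, 46.8 and 37.4 CPM (log2 fold change 0.87 ± 0.10, adjusted p = 0.00228) and *Wnt11* from 29.6, 32.7 and 29.9 CPM to 50.1, 48.5 and 41.0 CPM (0.61 ± 0.08, adjusted p = 0.00581). *Dkk3* (0.55), *Sfrp2* (0.36) and *Wif1* (0.34), all extracellular modulators, rose too. *Rspo4*, an enhancer of WNT signalling, fell from 24.4, 17.2 and 14.7 CPM to 9.87, 10.2 and 9.47 CPM (-0.93 ± 0.17, adjusted p = 0.0167). *Wnt2* (0.48, adjusted p = 0.481) and *Wnt2b* (0.20, adjusted p = 0.61) reached at most 3.55 and 4.67 CPM and did not pass. Only 2 of the list rose without DMSO 12 h replicate 1, DMSO 12 h replicate 3 or DMSO 18 h replicate 2, and 3 without DMSO 18 h replicate 3.

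Of 20 *HoxA* and *HoxD* genes only *Hoxd11* passed, going from 173, 157 and 198 CPM to 142, 128 and 145 CPM (log2 fold change -0.34, adjusted p = 0.0457). It did not pass under upper-quartile scaling or when any 1 of DMSO 12 h replicates 1 and 3 and DMSO 18 h replicates 2 and 3 was left out, while *Hoxd12* (-0.01) and *Hoxd13* (0.15, adjusted p = 0.151) did not pass in any of these fits. Without DMSO 18 h replicate 1, 3 *Hox* genes fell, and without both libraries that lay apart 8 fell and 1 rose. *Aldh1a2*, the enzyme that makes retinoic acid, rose from 14.0, 25.8 and 11.9 CPM to 40.5, 45.8 and 36.2 CPM (1.25 ± 0.23, adjusted p = 0.0176). The proximal factor *Meis1* (-0.32), *Irx3* (-0.32), the retinoic acid binding protein *Crabp2* (-0.30) and the degrading enzyme *Cyp26b1* (-0.22) fell, the last 3 of these not under upper-quartile scaling. Without DMSO 12 h replicate 1 none of these 5 passed, without DMSO 12 h replicate 3 or DMSO 18 h replicate 2 only *Meis1* did, and without DMSO 18 h replicate 3 only *Aldh1a2* did.

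Among factors of the anterior-posterior and dorsal-ventral axes, 4 of 26 rose and 5 fell. *Sall4*, a zinc finger factor of early outgrowth, fell from 26.2, 22.7 and 26.3 CPM to 11.5, 12.8 and 14.4 CPM (log2 fold change -0.95 ± 0.11, adjusted p = 0.00222), and *Sall3* (-0.73), *Asb4* (-0.38), *Alx4* (-0.37) and *Twist1* (-0.32) fell by less. *Pax9*, a paired-box factor of the anterior limb mesenchyme, rose from 4.31, 5.17 and 5.47 CPM to 11.5, 10.51 and 10.2 CPM (1.11 ± 0.13, adjusted p = 0.00309). *Zic1* (1.20), *Tbx18* (0.33) and *Tbx5* (0.19) rose. Without DMSO 12 h replicate 1, 1 of the list rose and 2 fell, without DMSO 12 h replicate 3, 2 rose and 3 fell, without DMSO 18 h replicate 2 or replicate 3, 2 rose, and without DMSO 18 h replicate 1, 8 fell.

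Genes of the heterochronic network, which keep embryonic cells in an early state and are repressed by let-7 microRNAs, fell together. Of 12 tested, 9 fell and none rose at adjusted p (median log2 fold change -0.30), and the summed level went from 3250 to 3353 CPM to 2740 to 2841 CPM with no overlap. *Lin28a* went from 5.08, 4.21 and 4.98 CPM to 3.40, 2.55 and 2.56 CPM (log2 fold change -0.75 ± 0.18, adjusted p = 0.0442) and *Lin28b* from 49.9, 43.9 and 46.8 CPM to 32.4, 30.7 and 36.2 CPM (-0.50 ± 0.08, adjusted p = 0.0106). *Trim71* (-0.57), *Arid3b* (-0.40), *Mycn* (-0.33), *Dnmt3b* (-0.31), *Hmga1* (-0.30), *Hmga2* (-0.25) and *Igf2bp2* (-0.17) fell too. *Myc* (0.13) did not pass. No member passed without DMSO 12 h replicate 1 or without DMSO 12 h replicate 3, 2 did without DMSO 18 h replicate 2 and 4 without DMSO 18 h replicate 3, although the median stayed between -0.35 and -0.27 when any 1 library was left out.

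Cell cycle genes shifted by small amounts. Of 28 S-phase genes 5 fell and none rose at adjusted p (median -0.15), with *Cdc6* (-0.37), *Ccne1* (-0.32), *Rrm2* (-0.30), *Uhrf1* (-0.23) and *Mcm2* (-0.19), and 27 of the 28 had a negative log2 fold change. Of 26 genes of G2 and mitosis *Aurka* (-0.23) and *Bub1b* (-0.19) fell. No S-phase gene passed without DMSO 12 h replicate 1 or replicate 3, 1 fell without DMSO 18 h replicate 2, 2 without DMSO 18 h replicate 3 and 12 without DMSO 18 h replicate 1. Neither G2 gene passed without DMSO 12 h replicate 1 or replicate 3 or DMSO 18 h replicate 2 or replicate 3. Among growth genes, *Igfbp3* rose from 111, 138 and 130 CPM to 198, 204 and 201 CPM (log2 fold change 0.68 ± 0.07, adjusted p = 0.00222) and the imprinted factor *Plagl1* from 123, 165 and 108 CPM to 204, 240 and 226 CPM (0.77 ± 0.14, adjusted p = 0.0147), and the other 22 of 24 did not pass. The number was 5 without DMSO 12 h replicate 2, 8 without DMSO 18 h replicate 1 and 1 without any 1 of the remaining 4.

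Other cell types of the bud were followed by their markers. Of 18 endothelial genes none passed, and *Kdr*, the VEGF receptor, had a log2 fold change of 0.10 (adjusted p = 0.528). Their log2 fold changes lay between -0.255 and 0.096. Macrophage genes were low and 5 of 17 rose, with a median of 0.54: *Csf1r*, the receptor for the macrophage growth factor, went from 7.04, 8.59 and 7.77 CPM to 10.3, 11.6 and 12.5 CPM (log2 fold change 0.56, adjusted p = 0.0341), and *Adgre1* (1.13), *Fcer1g* (0.98), *Ctss* (0.97) and *C1qa* (0.79) rose. The summed macrophage level was 50.47 to 57.93 CPM at 12 h and 72.39 to 75.57 CPM at 18 h. No macrophage gene passed without DMSO 12 h replicate 1, DMSO 12 h replicate 3, DMSO 18 h replicate 2 or DMSO 18 h replicate 3. Of 14 genes of Schwann cell precursors and nerves, *Ngfr* (0.91), *Ednrb* (0.85) and *Erbb3* (0.77) rose, and *Sox10* (0.47) did not pass. *Ngfr* went from 26.8, 33.2 and 23.6 CPM to 54.2, 50.4 and 51.6 CPM, with no overlap, and 1 of the 3 passed without DMSO 12 h replicate 1.

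All 19 erythroid genes had a negative log2 fold change, and 3 passed, among them *Hba-x* (-0.57) and *Hbb-bh1* (-0.54), which encode embryonic globins. *Hbb-bh1* went from 786, 683 and 969 CPM to 563, 517 and 590 CPM (adjusted p = 0.0233). The summed erythroid level was 5389 to 7854 CPM at 12 h and 4235 to 5257 CPM at 18 h. Its means were 4609, 6439, 4765 and 5065 CPM at 6, 12, 18 and 24 h, so the fall followed a rise. From 6 h to 12 h, 6 of the 19 rose and none fell at adjusted p (median 0.45, against -0.45 from 12 h to 18 h). In the contrast between these 2 intervals 1 of the list passed. None of the list passed without DMSO 12 h replicate 1, DMSO 12 h replicate 3 or DMSO 18 h replicate 3, 1 did without DMSO 18 h replicate 2, and 10 without DMSO 12 h replicate 2. The part that blood in the tissue had in other changes was not tested.

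Some metabolic genes fell, while most members of these lists did not pass. Of 26 genes of glycolysis and hypoxia 8 fell and none rose at adjusted p (median -0.14). *Slc16a3*, the exporter of lactate, went from 76.3, 77 and 69.7 CPM to 51.2, 51.4 and 48.8 CPM (log2 fold change -0.55 ± 0.06, adjusted p = 0.00199). *Hk2* (-0.35), *Eno1* (-0.31), *Slc2a1* (-0.30), *Pkm* (-0.26), *Ldha* (-0.23), *Pfkl* (-0.19) and *Gapdh* (-0.19), enzymes and a transporter of the same route, fell, whereas hypoxia genes such as *Vegfa* (0.10), *Ndrg1* (0.34) and *Car9* (0.72, adjusted p = 0.135) did not pass. In cholesterol synthesis 2 of 22 genes fell, among them *Fdps* (-0.37). In the amino acid list *Vldlr* rose (0.68) and *Shmt2* fell (-0.25) among 20. Neither passed without DMSO 12 h replicate 1, DMSO 12 h replicate 3, DMSO 18 h replicate 2 or DMSO 18 h replicate 3, and 4 of the list fell without DMSO 18 h replicate 1.

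Of 13 heat shock and chaperone genes 8 fell and none rose at adjusted p (median -0.28). *Hspa8*, the constitutive cytosolic HSP70 (chromosome 9, 40800984 to 40810087), went from 1668, 1609 and 1733 CPM to 1215, 1138 and 1150 CPM (log2 fold change -0.51 ± 0.04, adjusted p = 0.000611). *Hsph1* (-0.46), *Dnajb1* (-0.36), *Hspe1* (-0.35), *Hsp90aa1* (-0.30), *Dnaja1* (-0.28), *Hspd1* (-0.25) and *Hspa5* (-0.25) fell with it. The inducible *Hspa1b*, at 1.28 to 2.97 CPM, did not pass (-0.72, adjusted p = 0.131). Between 3 and 8 chaperone genes fell when any 1 library was left out, with the lowest number without DMSO 12 h replicate 1 or replicate 3. Glycolysis genes that fell numbered 1 and 3 in those 2 fits, 5 without DMSO 18 h replicate 2 and 3 without DMSO 18 h replicate 3. Of 15 immediate early genes, which respond to handling and stress, *Jund* (-0.39) and *Ier2* (-0.38) fell, and neither passed without DMSO 12 h replicate 1 or replicate 3. Of 17 clock genes *Per2* (0.73) and *Tef* (0.44) rose, *Tef* from 29.0, 28.8 and 29.0 CPM to 39.6, 39.1 and 38.4 CPM. *Per2* (adjusted p = 0.0406) passed only without DMSO 18 h replicate 1 among the 6 fits that left out a library and not with the replicate block, whereas *Tef* passed in all of these.

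**Figure D4:**
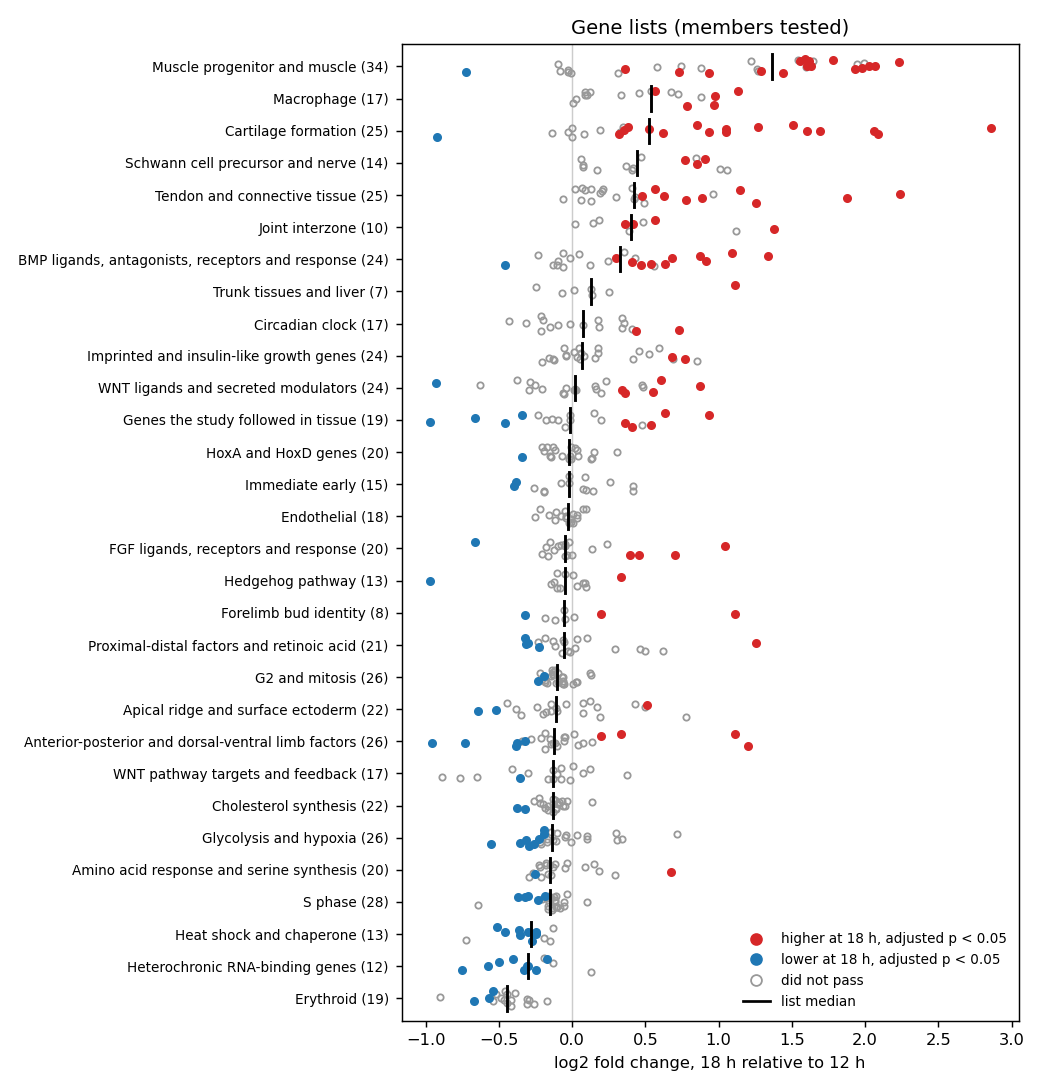
Log2 fold change from 12 h to 18 h (x axis) of the tested members of 30 gene lists (rows, number tested in brackets), with a black bar at the median of each list, red and blue points for members that passed higher or lower, and open points for those that did not. Medians run from -0.45 for erythroid genes to 1.37 for muscle genes.

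The largest changes of single genes lay partly outside these lists. Among genes with a mean of at least 1 CPM and groups that did not overlap, 137 rose and 26 fell by more than 1 on the log2 scale. Named protein-coding genes among the 12 largest rises were *Eomes*, a T-box factor (0, 0.16 and 0.219 CPM to 1.78, 2.48 and 1.90 CPM), *Rfx4* (0, 0.533 and 0.274 CPM to 2.66, 2.32 and 1.69 CPM), *Klhl31*, a gene of muscle (0.0958, 0.480 and 0.219 CPM to 1.36, 1.89 and 2.66 CPM), *B3galt5*, *Kcnk13*, *Acan* and *Ogn*. The log2 fold changes were 4.04 for *Eomes*, 3.07 for *Rfx4*, 2.90 for *Klhl31*, 2.64 for *B3galt5* and 2.29 for *Kcnk13*, and all of these had low counts at 12 h. *Acan* did not pass without DMSO 12 h replicate 1, DMSO 12 h replicate 3, DMSO 18 h replicate 2 or DMSO 18 h replicate 3, *Rfx4* not without DMSO 12 h replicate 3 or DMSO 18 h replicate 2, and *Klhl31* not without DMSO 12 h replicate 1 or replicate 3. *Inhba*, encoding the activin beta-A chain, is outside the rule for named genes and was chosen after its values were seen. It rose from 2.39, 3.25 and 2.24 CPM to 10.6, 13.3 and 10.4 CPM (log2 fold change 2.13 ± 0.18, adjusted p = 0.000634) and passed in each fit that left out a library.

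Among the 12 largest falls only *Lyrm7* was a protein-coding gene. *Zfp125*, annotated as a transcribed pseudogene, went from 14.1, 12.6 and 9.58 CPM to 2.40, 1.38 and 3.07 CPM (log2 fold change -2.47 ± 0.27, adjusted p = 0.00222) and *Lyrm7*, a mitochondrial assembly factor, from 7.71, 4.21 and 8.98 CPM to 2.25, 1.40 and 2.71 CPM (-1.76 ± 0.32, adjusted p = 0.0166). *Lyrm7* did not pass without DMSO 12 h replicate 1, DMSO 12 h replicate 3 or DMSO 18 h replicate 2. Some loci had no count in one group. *Gm42047*, a long non-coding RNA gene (chromosome 8, 121833247 to 121841178), had no count in the 3 libraries at 12 h and 96.3, 36.2 and 71.5 CPM at 18 h, which is at least 1310-fold higher against a floor of 3 counts over the group. *Gm11585*, a pseudogene, had 6.18, 6.56 and 8.38 CPM at 12 h and no count at 18 h, at least 183-fold lower. Its mean was 6.65 CPM at 6 h and 4.19 CPM at 24 h, so the locus had counts again after 18 h. The part of shared reads or of differences between embryos in this was not tested. The FPKM values of *Gm21399*, *Rab11b-ps2* and *Gm46432*, processed pseudogenes among the largest falls, had the opposite sign in a limma fit, so their direction is uncertain.

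The change from 12 h to 18 h was compared with the intervals before and after it. The 3 intervals share libraries at their borders, so each contrast was fitted with all 9 libraries. Against the change from 6 h to 12 h, 35 genes (0.228% of 15323) passed, and against the change from 18 h to 24 h, 87 genes (0.558% of 15588) passed. Both sets included pseudogenes, such as *Gm12751* and *Gm11585*, whose reads can be shared with their parent genes. Fitted over protein-coding genes alone, 11 and 37 passed. No gene of the muscle, joint, BMP or heterochronic lists was among either set, and neither were the cartilage genes except *Cytl1* and *Hapln1*. The members of these lists had medians that ran the same way in all 3 intervals, 0.73, 1.37 and 0.88 for muscle, 0.36, 0.52 and 0.40 for cartilage and -0.14, -0.30 and -0.25 for the heterochronic list. *Acan* had means of 0.204, 0.796, 5.64 and 12.8 CPM at 6, 12, 18 and 24 h, and *Shh* of 14.4, 11.7, 6.01 and 0.861 CPM. A contrast that does not pass does not show that a change was equal in both intervals.

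Chaperones went another way between this interval and the next. From 6 h to 12 h none of 13 passed, from 12 h to 18 h 8 fell, and from 18 h to 24 h 3 rose. In the direct contrast with the change from 6 h to 12 h none of the 13 passed. In that with the change from 18 h to 24 h 3 did. *Hspa8* had means of 1743, 1670, 1168 and 1268 CPM at 6, 12, 18 and 24 h, and the change after 18 h differed from the change before it by 0.64 ± 0.07 on the log2 scale (adjusted p = 0.00106). *Dnajb1* (difference 0.60, adjusted p = 0.00394) and *Hspa5*, the main chaperone of the endoplasmic reticulum (0.46, adjusted p = 0.00688), passed the same contrast. Further genes of the endoplasmic reticulum were named after their values were seen: *Xbp1* (0.68), *Herpud1* (0.69), *Manf* (0.53), *Hyou1* (0.44) and *Pdia4* (0.43) passed, each having fallen from 12 h to 18 h. Of the 6 fits that left out a library, this fall did not pass in 5 for *Herpud1*, 4 for *Xbp1*, 3 for *Pdia4* and 1 for *Hyou1*. For *Manf* it passed in each. *Manf* also differed from the earlier interval (-0.64, adjusted p = 0.00665).

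*H2-D1*, a classical class I histocompatibility gene (chromosome 17, 35262730 to 35267499) also chosen after its values were seen, passed both contrasts. It stood at 19, 18.5 and 15.4 CPM at 12 h and 6.27, 5.05 and 6.76 CPM at 18 h, with 14.6 ± 0.15 CPM at 24 h. It belongs to a family of near-identical copies, so reads could have been split between copies, and Swiss Albino is an outbred stock. The part of either in these values was not tested.

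**Figure D5:**
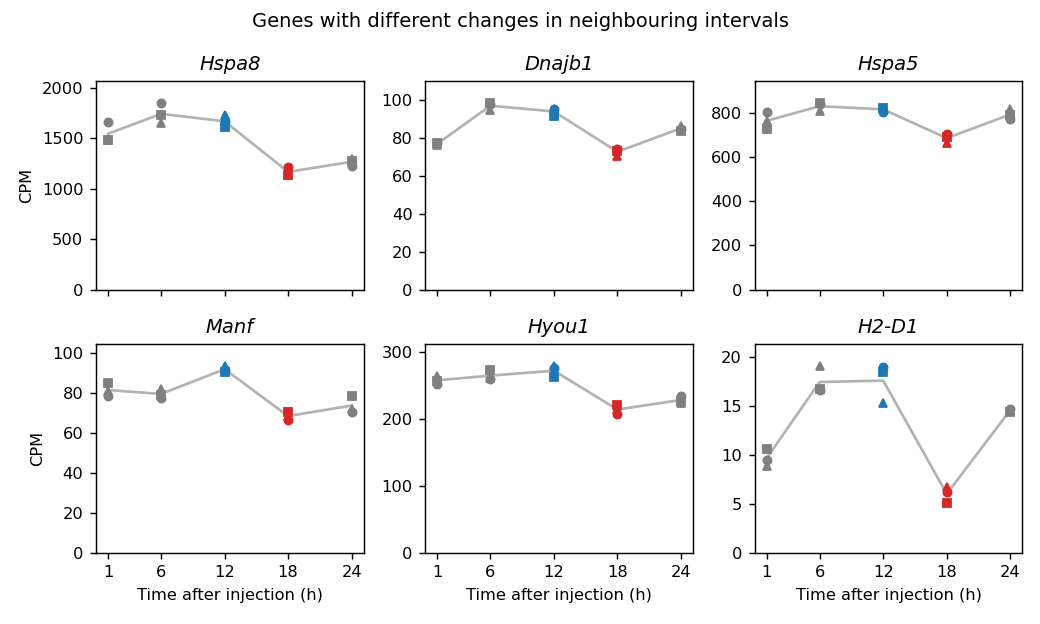
Level (y axis, CPM, starting at 0) of 6 genes in each control library against time after injection (x axis, h), drawn with the same symbols and colours as the plot of 9 genes. *Hspa8*, *Dnajb1*, *Hspa5*, *Manf*, *Hyou1* and *H2-D1* lie lower at 18 h than at 12 h in every library, and the mean of each is higher at 24 h than at 18 h.

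The change over the same 6 h was also compared with that after C59, which was injected at E10.5 as well. Per the study's methods, C59 was given in a vehicle that also held methylcellulose and Tween-20, whereas controls received DMSO in PBS. The part of the vehicle in these differences was not tested. In C59 *Axin2* stood at 36.6, 36.5 and 41.4 CPM at 12 h and 100.1, 84.3 and 94.4 CPM at 18 h, a rise of 1.28 on the log2 scale, so the interval is one in which this WNT target came back up and not one of steady inhibition. The change from 12 h to 18 h differed between C59 and controls for 1181 genes (7.36% of 16057). For *Axin2* the change was -0.02 in controls and higher in C59 by 1.31 on the log2 scale. *Shh*, *Fgf8* and *Grem1*, which fell in controls, had a change that was higher in C59 by 2.78, 2.47 and 2.27. *Bmp4* (0.98) and *Dusp6* (0.79) also differed upward. *Sulf1* (-1.24), *Bmpr1b* (-1.08), *Sox9* (-0.86), *Ptch1* (-0.57) and *Hoxd12* (-0.52) differed downward. These differences use the C59 level at 12 h as their start. When 1 library was left out, 667 to 2062 genes passed, the lowest number without DMSO 12 h replicate 3 and the highest without C59 18 h replicate 3, which stood apart from its group (chi-square per degree of freedom 38.9 and 32.9, against 4.10 between the other 2).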

How the data were processed

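PolyA RNA of mouse forelimb buds was sequenced by the authors as paired reads in 30 libraries. Per the study's methods and the submitters' processing notes, reads were trimmed with cutadapt 1.16 and mapped with STAR 2.7.0e to mm10, and the deposited counts per gene were made during mapping (strand not stated in the sources used here). The deposited FPKM values, from Cufflinks 2.2.1, were used only for an alternative fit and for genes of the sex chromosomes, which the count table does not list. The counts of the 6 libraries were fitted with edgeR 4.0.16 (R 4.3.3) by the quasi-likelihood test with TMM scaling, after the default filter on low counts (minimum count 10, minimum total 15), and p-values were adjusted by Benjamini-Hochberg over 15027 genes. Fold changes are 18 h relative to 12 h with their standard errors, and a gene passed at an adjusted p below 0.05. CPM values were scaled by TMM over all 30 libraries.

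Groups came from the labels. Named genes were those of the lists that passed, genes the study followed, and the 12 largest rises and falls among genes past a log2 fold change of 1 whose groups did not overlap and whose mean reached 1 CPM. Some other members are named as not passing, and genes chosen after their values were seen are marked as such. A few genes that passed are counted but not reported here by name. The 30 lists (592 genes) and the comparison itself were chosen with earlier results of these data known. Contrasts with other intervals and with C59 used the same test. Replicates were separate embryos per the methods, which the sex-linked transcripts of DMSO 18 h replicate 2 go against. *Xist* and Y-linked transcripts were also found together in DMSO 1 h replicates 1 and 2 and DMSO 24 h replicates 1 and 3. C59 12 h replicate 1 and C59 18 h replicate 2 held both too. These libraries entered the 1 h to 24 h axis or the contrasts. Deviations of same-numbered libraries from their group means had r = 0.027, 0.178 and -0.035 over 9993 genes. Differently numbered libraries had r from -0.199 to 0.163, so the value for replicate 2 was the highest of all. As all of these were small, numbers were not used as a block in the reported fit. The fit was tested on simulated counts for 18 h against 12 h over 14843 genes, where 53.7%, 86.6% and 100% of genes changed by a log2 fold change of 0.5, 1 and 2 were recovered and 7.51% of calls were unchanged genes, above the 5% aimed at. These counts were drawn for each gene on its own, so no simulated library lay apart as a whole. The rates therefore do not cover libraries that lay apart, as in the data. Alternatives were DESeq2 1.42.0, limma 3.58.1 on log2(FPKM + 1) and log2(FPKM + 0.1), other scalings and filters, more libraries, a replicate block and leaving out each library. Of the gene IDs, 50628 matched GENCODE M21 and 205 did not.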

Additional observations from a re-analysis of the deposited data

Results flagged for a closer look

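Differences between intervals and treatments were tested directly with edgeR's quasi-likelihood test. Against the preceding interval 35 genes passed, against the following interval 87, and between C59 and controls 1181.

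The change from 12 h to 18 h was higher in C59 than in controls, on the log2 scale, for *Shh* (2.776), *Fgf8* (2.468), *Grem1* (2.265), *Axin2* (1.306), *Bmp4* (0.978) and *Dusp6* (0.792). It was lower in C59 for *Sulf1* (-1.236), *Bmpr1b* (-1.083), *Sox9* (-0.863), *Ptch1* (-0.571) and *Hoxd12* (-0.516).

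The change from 18 h to 24 h was lower than that from 12 h to 18 h for *B3galt5* (-2.483), *Cytl1* (-2.105), *Inhba* (-1.465), *Vgll2* (-0.995) and *Lum* (-0.706). It was higher for *H2-D1* (2.871), *Hapln1* (0.932), *Herpud1* (0.694), *Xbp1* (0.684), *Hspa8* (0.639), *Dnajb1* (0.599), *Manf* (0.534), *Hspa5* (0.464), *Hyou1* (0.442), *Pdia4* (0.432) and *Twist1* (0.429). *Vgll2*, like the others named as such in the report, was chosen after its values were seen. The change from 12 h to 18 h was lower than that from 6 h to 12 h for *H2-D1* (-1.587), *Fdps* (-0.664) and *Manf* (-0.636).

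Outside the count table, 4 Y-linked genes summed to 38.557 FPKM and *Xist* stood at 0.048 FPKM in DMSO 12 h replicate 2. In DMSO 18 h replicate 2 the same sums were 21.019 FPKM and 42.179 FPKM, so that this library alone of the 6 held both at over 1 FPKM.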

How the results depend on the processing

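Counts of genes are given as higher, lower, and higher and lower with a log2 fold change beyond 1, against 487, 429, 159 and 37 in the reported fit. They were 948, 863, 280 and 88 with no filter on low counts, 983, 951, 231 and 49 with all 15 control libraries, 779, 550, 220 and 47 with all 30 libraries, 545, 427, 157 and 16 over protein-coding genes, 130, 46, 14 and 6 with limma on log2(FPKM + 1), and 53, 21, 28 and 7 on log2(FPKM + 0.1). A test against a log2 fold change of 1 gave 5 higher and 5 lower. Without both libraries that lay apart, added after seeing the data, they were 1687, 1608, 373 and 75. With the replicate block they were 480, 329, 151 and 38, and 698 of the 916 genes passed. DESeq2 gave 636, 528, 171 and 47.

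Leaving out 1 library gave ranges of 95 to 1040 higher, 48 to 980 lower, 48 to 258 higher with fold and 19 to 55 lower with fold. The step in position ranged from 28.89 to 38.01 percentage points. The contrast with the preceding interval (35) gave 123 with DESeq2, 335 with no filter, 11 over protein-coding genes, 65 with the replicate block and 12 to 56 without 1 library. That with the following interval (87) gave 278, 734 and 37 in the first 3 of these and 28 to 353 without 1 library. That with C59 gave 667 to 2062 without 1 library. The cause of these shifts was not tested.

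Of 172 named genes 134 passed, 112 of them in every count-based alternative with all 6 libraries, and 88 were lost in at least 1 fit without a library. The FPKM fits lost 90 (pseudocount 1) and 107 (pseudocount 0.1) of the named calls. With these fits included, 27 genes lost no call in any alternative with all 6 libraries. Only 25 also lost none without a library. Both counts include the genes with reversed signs named next. Signs reversed in the FPKM fits (pseudocount 1, then 0.1) for *Gm21399* (0.302, 0.945), *Rab11b-ps2* (0.273, 1.008) and *Gm46432* (0.03, 0.078).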
